A study of Mus musculus with 24 samples.

Results

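The 46 genes described here, of the actomyosin and focal adhesion machinery, were chosen by name for their roles with earlier results of these data known. They are 3 actins, 5 filament crosslinkers, 4 tropomyosins, 6 genes of nonmuscle myosin II and its light chains and kinase, 6 calponin, transgelin, and caldesmon genes, 13 genes of LIM proteins, PDZ-LIM proteins, and palladin, 6 focal adhesion core genes, 2 genes of actin turnover, and the transcription factor gene Srf. The deposited table lists 55421 mouse genes, of which 18046 had enough counts to be tested, and all 46 members were among those 18046.

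RNA was sequenced from type II alveolar epithelial cells (AEC2s) of Krt8+/+ mice and of Krt8–/– mice, which lack keratin 8 in every tissue. Freshly isolated cells stood for day 0, and AECs of the same isolations were collected on days 1, 3, and 7 of 2D culture, with 3 isolations in each of the 8 groups of genotype and day. Each date in the sample titles, read here as the date of isolation, covered both genotypes and all days. The genotypes come from different mice, so between genotypes an isolation number stands for a shared date. The labels name no treatment, age, or strain, and the sources used here do not say whether cells of several mice were pooled for an isolation.

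Actin filaments slide past bipolar myosin II filaments to make tension, tropomyosins and calponins coat the filaments and set which proteins may bind them, and crosslinkers such as α-actinin, filamin, and fascin join them into bundles and networks. At focal adhesions, talin, vinculin, paxillin, and the ILK-parvin complex tie these bundles to integrins, and LIM proteins such as zyxin are recruited to them under tension. Free actin monomers hold the MRTF coactivators in the cytoplasm. When monomers are used up, MRTF enters the nucleus and joins SRF there. Together they raise transcription of many of these same genes through a DNA element called the CArG box. In the alveolus, AEC1s are thin and widely spread cells, while the AEC2s that give rise to them are cuboidal.

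A CArG box is the link between Srf and the other members that can be read from sequence, so windows around boxes found in the members' promoters are shown here. RefSeq promoters on GRCm38.p6 were matched for 41 of the 46 members, and Actb, Parva, Pxn, Tagln, and Tln2 had no match. A CArG box was taken strictly as CCWWWWWWGG, where W is A or T. Within 250 bases before any annotated start, such a box on either strand was present in 9 of these 41 members (22%), against 1.62% of the 27025 genes with a promoter. The 9 were Actg1, Cnn2, Fhl1, Fhl2, Lima1, Myl6, Myl9, Srf, and Vcl. The following windows are read 5′ to 3′ on the strand of the gene, with the CArG box in capitals and up to 30 bases on each side. Srf held a pair of boxes, and the second one is the stretch ccataaaagg in lower case of its window. The boxes of Fhl1 and Myl6, and a further box of Fhl2 that ended 87 bases before another of its starts, are not printed.
Actg1, chr11:120348546-120348615, minus strand: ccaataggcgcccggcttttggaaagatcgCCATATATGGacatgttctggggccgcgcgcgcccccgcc
Srf, chr17:46556205-46556274, minus strand: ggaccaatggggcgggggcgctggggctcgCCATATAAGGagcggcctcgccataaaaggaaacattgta
Vcl, chr14:20929148-20929210, plus strand: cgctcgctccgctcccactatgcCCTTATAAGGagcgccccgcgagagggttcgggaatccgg
Myl9, chr2:156775273-156775342, plus strand: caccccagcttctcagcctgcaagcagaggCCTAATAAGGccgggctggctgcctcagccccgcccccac
Fhl2, chr1:43163962-43164022, minus strand: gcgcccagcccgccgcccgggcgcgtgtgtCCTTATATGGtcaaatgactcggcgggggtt
Cnn2, chr10:79988514-79988583, plus strand: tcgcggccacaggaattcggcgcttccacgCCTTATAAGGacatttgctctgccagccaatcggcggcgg
Lima1, chr15:99820157-99820226, minus strand: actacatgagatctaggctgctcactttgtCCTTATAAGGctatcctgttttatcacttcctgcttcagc

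The box of Actg1 ended 81 bases before the start, that of Cnn2 47 bases, that of Myl9 152 bases, and that of Vcl 218 bases. The motif GGAATG, which TEAD factors bind, was present on either strand in 14 of the 41 members (34.1%) against 14.4% of all genes with a promoter. The AP-1 motif TGANTCA was present in 7 (17.1%) against 7.82%. For each motif a match at any annotated start counted, so a gene with several starts had more windows. These matches describe letters in a window and say nothing of binding in AECs.

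Libraries held between 10184439 and 19483386 counts, and levels are given as CPM, the counts of a gene scaled by TMM to a common library size. Krt8 was counted at 485 to 5090 CPM in the Krt8+/+ libraries and at 21.2 to 47.4 CPM in the Krt8–/– libraries. The 4 AEC2 markers Sftpc, Sftpb, Lamp3, and Abca3 summed to between 162000 and 235000 CPM on day 0 and to between 114 and 168 CPM on day 7, while Epcam was counted at 134 to 300 CPM on day 7. In isolation 1, genes of the Y chromosome summed to at most 0.441 CPM in Krt8+/+ and to at least 173 CPM in Krt8–/– libraries, so that the genotypes of that isolation also differ in sex-linked RNA. In bulk RNA, fewer cells of a type and less RNA per cell cannot be told apart.

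The summed level of the members rose in culture. It was 11300, 12100, and 11500 CPM in Krt8+/+ AECs of isolations 1, 2, and 3 on day 0, 17100, 19600, and 16400 CPM on day 1, 30300, 36000, and 28600 CPM on day 3, and 46000, 55100, and 45300 CPM on day 7. The groups did not overlap from one day to the next, and day 7 was 4.19-fold ± 0.324 (SD, n = 3) above day 0 of the same isolation. In Krt8–/– AECs the same ratio was 4.29-fold ± 0.208 (SD, n = 3).

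From day 0 to day 7 of culturing Krt8+/+ AECs, 42 of the 46 members rose and 2 fell by edgeR's quasi-likelihood test with Benjamini-Hochberg adjustment over all genes tested, at a threshold of 0.05. Of all 18046 genes, 28.6% rose and 30.2% fell in this comparison. Because the members were chosen with earlier results of these data known, the contrast with all genes is a description only. The median log2 change was 2.34 over the members and 0.00 over all genes tested. The members that fell were Mylk and Pdlim1, and Lima1 and Pxn did not pass the test. Scaling by the total count in place of TMM moved the median of all genes by 0.45 on the log2 scale, and Pdlim1 then no longer passed (log2 −0.29, adjusted p = 0.168).

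The rise came in steps. On day 1 against day 0, 30 members rose and 6 fell, where 26.2% of all genes rose and 28.5% fell. On day 3 against day 1, 38 members rose and 0 fell, where 14.4% of all genes rose and 11.9% fell. On day 7 against day 3, 19 members rose and 0 fell, where 3.11% of all genes rose and 3.47% fell. The median log2 changes over the members were 0.90, 1.02, and 0.52 in turn, against 0.00, −0.05, and −0.01 over all genes tested. By neither edgeR nor DESeq2 did a member fall in the steps after day 1, and at an unadjusted threshold of 0.05 edgeR took 41 members on day 3 against day 1 and 29 on day 7 against day 3. These comparisons share the libraries of days 1 and 3, and day 1 and day 7 were both set against the same libraries of day 0. The count of falls on day 1 was 3 without isolation 2, and the count of rises from day 3 to day 7 was 11 without isolation 1, 7 without isolation 2, and 9 without isolation 3. These counts come from the fit without a replicate block. With isolation as the block, 38, 42, and 23 members passed in either direction in the 3 steps, against 36, 38, and 19 without it.

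**Figure D1:**
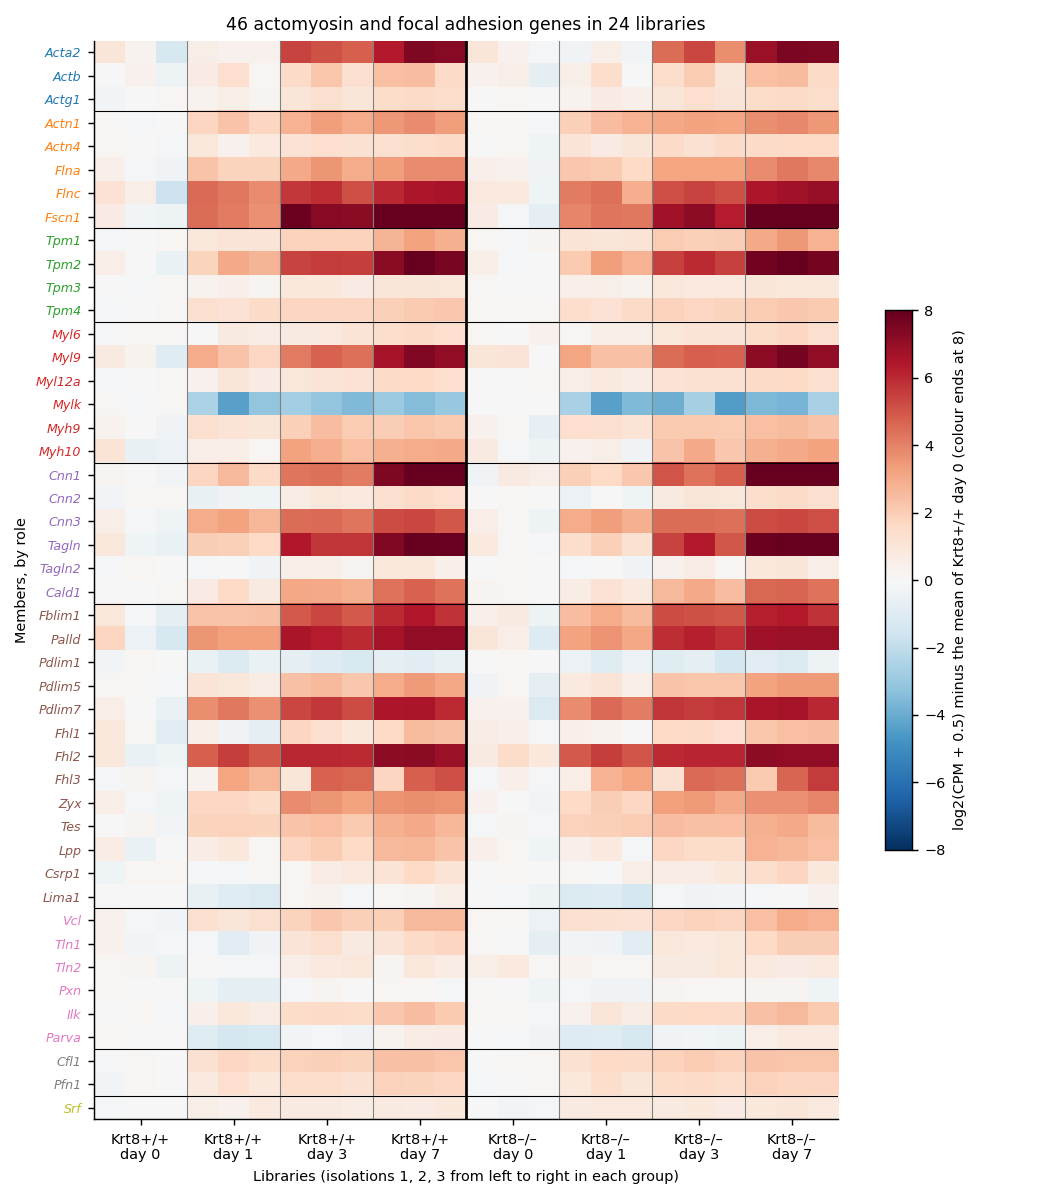
Each row is 1 of the 46 members, coloured by role on the left, and each column 1 of the 24 libraries, with isolations 1, 2, and 3 in order within each group of genotype and day. The colour gives log2(CPM + 0.5) minus the mean of the Krt8+/+ libraries of day 0 and ends at 8, and most rows darken from day 0 to day 7 in both genotypes, while Mylk and Pdlim1 turn blue.

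**Figure D2:**
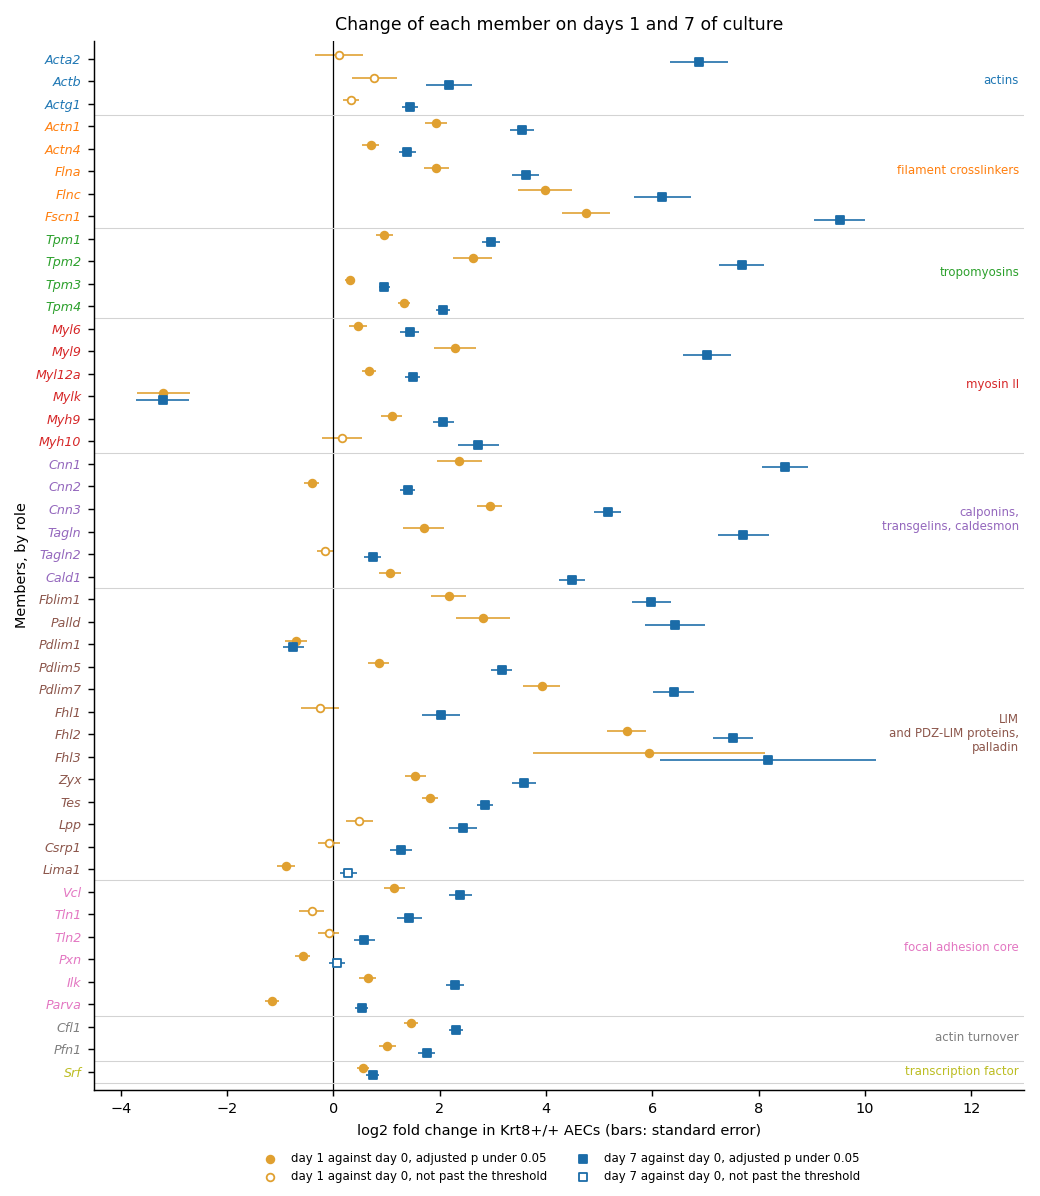
Each line is a member, grouped by role, with its log2 fold change in Krt8+/+ AECs on day 1 (circles) and day 7 (squares) against day 0 and the standard error as a bar; open symbols did not pass the threshold. On day 7, 42 members lie to the right of 0 with filled squares, and the 6 members that fell on day 1 lie to the left of 0.

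The 3 actin genes were all higher on day 7, and on day 1 0 of them passed by edgeR, with 1 below an unadjusted 0.05, while DESeq2 called Actg1 (log2 0.39, adjusted p = 0.0141). Acta2, which encodes the α-actin of smooth muscle and myofibroblasts, was counted in Krt8+/+ AECs at 23, 14.5, and 4.54 CPM on day 0, at 16.1, 15.2, and 14.7 CPM on day 1, at 518, 413, and 331 CPM on day 3, and at 987, 2120, and 1920 CPM on day 7. Days 0 and 1 overlapped, and both later days lay apart from them and from each other. Its change was 0.10 ± 0.45 (log2, SE) on day 1 with an adjusted p of 0.860, and 6.88 ± 0.55 on day 7 with an adjusted p of 2.04e-09 (edgeR), in the same direction in 3 of 3 isolations. In Krt8–/– AECs on day 7 it was counted at 1460, 2250, and 2190 CPM. Acta2 made up 0.358% ± 0.254 (SD, n = 3) of the summed CPM of the 3 actin genes, not corrected for length, on day 0 in Krt8+/+ AECs and 11.2% ± 4.53 on day 7.

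Actb encodes cytoplasmic β-actin. Its level was 1570, 1890, and 1150 CPM on day 0, 2370, 3800, and 1690 CPM on day 1, 4360, 7100, and 3620 CPM on day 3, and 8030, 8370, and 4400 CPM on day 7. Isolation 3 was the lowest in each of the 8 groups of genotype and day, and each day overlapped with the next. On day 7 the change was 2.17 ± 0.43 (log2, SE, adjusted p = 0.000209 by edgeR). Actg1, the γ-actin gene, went from between 2100 and 2740 CPM on day 0 to between 6250 and 7080 CPM on day 7. Per kilobase of exon, the ratio of Actb to Actg1 in Krt8+/+ AECs was 0.739, 0.769, and 0.415 on day 0 and 1.22, 1.18, and 0.701 on day 7, so that the order of both genes was turned in 2 of the 3 isolations. Reads of Actg1 may be shared with processed pseudogenes that match it at up to 99.6% of bases.

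All 5 crosslinker genes rose by day 1 and were higher still on day 7. Fscn1, whose product fascin packs filaments into the tight bundles of filopodia, had the largest change of all members. It was counted at 1.02, 0.325, and 0.221 CPM on day 0, at 20.9, 16.6, and 11.5 CPM on day 1, at 225, 148, and 141 CPM on day 3, and at 355, 551, and 437 CPM on day 7. No group overlapped with another. The change on day 7 was 9.53 ± 0.48 (log2, SE, adjusted p = 5.17e-12 by edgeR), from 21 counts over the 3 libraries of day 0 to 18452. In Krt8–/– AECs, Fscn1 stood at 1.01, 0.405, and 0.0773 CPM on day 0 and at 420, 443, and 488 CPM on day 7.

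Flnc, the filamin of muscle, was at 3.69, 2.17, and 0.111 CPM on day 0, at 42.5, 34.7, and 25.3 CPM on day 1, at 95.7, 115, and 67.2 CPM on day 3, and at 126, 170, and 181 CPM on day 7. Its change was 3.98 ± 0.51 on day 1 and 6.19 ± 0.54 on day 7 (log2, SE), so most of the log2 rise was present after 1 day. Flna, the ubiquitous filamin that anchors actin to membrane proteins, rose by 3.62 from between 159 and 254 CPM to between 1930 and 2680 CPM. Per kilobase of exon, Flnc stood at 0.00927 ± 0.00749 of Flna on day 0 and at 0.0662 ± 0.00332 on day 7 (SD, n = 3). The α-actinin genes also rose, Actn1 by 3.55 and Actn4 by 1.39 on the log2 scale, and Actn4 stayed the more abundant per kilobase on every day.

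The 4 tropomyosin genes rose on day 1 and on day 7. Tpm2, which encodes β-tropomyosin, was counted in Krt8+/+ AECs at 7.06, 4.77, and 3.21 CPM on day 0, at 17.8, 43.1, and 34.1 CPM on day 1, at 220, 252, and 248 CPM on day 3, and at 797, 1330, and 1030 CPM on day 7. The days did not overlap, and the change on day 7 was 7.68 ± 0.43 (log2, SE, adjusted p = 2.17e-11 by edgeR). Tpm1, the gene of α-tropomyosin, was already abundant at 532, 548, and 634 CPM on day 0 and reached 3760, 5410, and 4130 CPM on day 7, with 1050, 1140, and 1140 CPM on day 1 and 2050, 2090, and 2020 CPM on day 3. Its change was 2.96 ± 0.17 on day 7 (adjusted p = 2.73e-11 by edgeR). Tpm4 and Tpm3 changed by 2.07 and 0.96 on day 7. On day 1, Tpm3 rose by 0.31, a call that was lost without isolation 1 (adjusted p = 0.0850) and without isolation 2 (0.0774). Per kilobase of exon, Tpm2 was at 0.0237 ± 0.00925 of Tpm3 on day 0 and at 2.55 ± 0.619 of it on day 7 (SD, n = 3). Reads of Tpm3 may be shared with Tpm3-rs7, which matches it at 99.2% of bases.

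Of the 6 myosin II genes, 5 rose by day 7 and the kinase gene fell. Myl9, which encodes a regulatory light chain of smooth muscle and nonmuscle myosin, was counted at 7.19, 5.09, and 1.88 CPM on day 0, at 35.4, 21.9, and 14.2 CPM on day 1, at 83.8, 124, and 97 CPM on day 3, and at 472, 795, and 644 CPM on day 7. The change was 7.03 ± 0.46 (log2, SE, adjusted p = 1.63e-10 by edgeR), and the step from day 3 to day 7 (2.65) was larger than the steps before it (2.29 and 2.09), a difference that was not tested. The related light chain genes Myl12a and Myl6 changed by 1.49 and 1.44. The heavy chain genes Myh9 and Myh10 changed by 2.07 and 2.73 on day 7, and Myh10 did not pass the test on day 1 (0.16 ± 0.38). Myl12a may share reads with Myl12b, which matches 648 of its bases at 96.9%.

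Mylk encodes myosin light chain kinase, which phosphorylates the regulatory light chains and thereby switches on contraction. It was counted at 119, 101, and 119 CPM on day 0, at 19.5, 5.18, and 12.2 CPM on day 1, at 16, 12.1, and 9.25 CPM on day 3, and at 13.8, 9.62, and 13.1 CPM on day 7. All culture days lay below day 0 and overlapped with each other. The change was −3.20 ± 0.50 on day 1 and −3.21 ± 0.50 on day 7 (log2, SE, adjusted p = 2.01e-05 and 1.28e-05 by edgeR). In Krt8–/– AECs, Mylk went from 114, 113, and 115 CPM on day 0 to 8.92, 7.94, and 18.6 CPM on day 7.

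The 6 calponin, transgelin, and caldesmon genes, whose products bind along actin filaments and restrain or stabilise contraction, were all higher on day 7. Cnn1, the calponin of smooth muscle, was at 1.27, 0.975, and 0.775 CPM on day 0, at 4.33, 8.36, and 3.73 CPM on day 1, at 29.1, 30.9, and 26.6 CPM on day 3, and at 259, 505, and 375 CPM on day 7. Its change was 8.50 ± 0.43 (log2, SE, adjusted p = 5.65e-12 by edgeR), with the days apart from each other. Tagln, the transgelin gene also called SM22α, was at 10.5, 4.01, and 3.43 CPM on day 0, at 21.9, 21.6, and 17 CPM on day 1, at 491, 304, and 301 CPM on day 3, and at 963, 1510, and 1420 CPM on day 7. Its change was 7.71 ± 0.48 (adjusted p = 7.03e-11), of which 4.18 came between day 1 and day 3. Here too the days did not overlap.

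The paralogs Tagln2 and Cnn2 changed less. Tagln2 changed by 0.74, a call that was lost without isolation 1 (adjusted p = 0.0506). Per kilobase of exon, Tagln was at 0.00896 ± 0.00673 of Tagln2 on day 0 and at 1.15 ± 0.396 of it on day 7 (SD, n = 3). Cnn3 rose by 2.94 on day 1 and by 5.16 on day 7, while Cnn2, the isoform with the highest level per kilobase throughout, changed by −0.41 on day 1 and by 1.40 on day 7. The fall of Cnn2 on day 1 was lost without isolation 1, 2, or 3, and under scaling by the total count its change was 0.07. Caldesmon, encoded by Cald1, rose by 4.49, from between 40 and 44.8 CPM to between 842 and 1100 CPM.

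Of the 13 genes of LIM and PDZ-LIM proteins and palladin, 11 rose by day 7. Fhl2, a LIM-only protein that moves between adhesions and the nucleus, was among the earliest members to rise. It was counted at 1.46, 0.217, and 0.332 CPM on day 0, at 28.5, 48.7, and 31.8 CPM on day 1, at 67, 69.3, and 65.2 CPM on day 3, and at 152, 157, and 127 CPM on day 7. The days did not overlap, and the change was 5.52 ± 0.37 on day 1 (adjusted p = 3.77e-10) and 7.52 ± 0.38 on day 7 (log2, SE, adjusted p = 5.19e-12 by edgeR). Fhl1, the isoform with the highest group means per kilobase of the 3, was not past the threshold on day 1 and changed by 2.02 on day 7. In single Krt8+/+ isolations the order varied, with a ratio of Fhl2 to Fhl1 of 0.456, 1.39, and 1.27 on day 1 and of 1.17, 0.638, and 0.586 on day 7.

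Fhl3 had the largest standard error of the members and differed between isolations. In Krt8+/+ AECs it was at 0, 0.108, and 0 CPM on day 0, at 0.147, 4.18, and 2.85 CPM on day 1, at 0.525, 13.3, and 12.5 CPM on day 3, and at 1.29, 14.3, and 18.2 CPM on day 7. Isolation 1 was the lowest in each of the 6 culture groups of both genotypes, at 0.147 to 1.77 CPM against 2.85 to 25.6 CPM in isolations 2 and 3. From day 0 to day 7 the counts went from 1 to 466 over the 3 libraries, a ratio of 379 with an exact 95% interval of 67.6 to 15000 that covers counting error only. The test of day 7 gave 8.18 ± 2.03 (log2, SE, adjusted p = 0.00163 by edgeR). The call on day 1 was lost without isolation 2 (adjusted p = 0.189) and without isolation 3 (0.157).

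Other members of this group rose from low levels. Palld encodes palladin, a scaffold of stress fibre bundles, and it changed by 6.43 on day 7, from between 0.886 and 10.6 CPM to between 342 and 464 CPM. Fblim1, whose product migfilin links filamins to adhesions, changed by 5.98, from between 2.1 and 7.88 CPM to between 241 and 371 CPM. Pdlim7, a PDZ-LIM protein of actin bundles, changed by 3.92 on day 1 and by 6.40 on day 7. The paper had already reported higher levels of Palld, Fblim1, and Pdlim7 in cultured AECs by day 7. Zyx, the gene of zyxin, changed by 3.59, Pdlim5 by 3.17, Tes by 2.85, Lpp by 2.44, and Csrp1 by 1.27.

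Pdlim1 went the other way, and on day 7 its paralog Pdlim7 had the higher level per kilobase. In Krt8+/+ AECs, Pdlim1 was at 321, 426, and 386 CPM on day 0, at 265, 178, and 255 CPM on day 1, at 221, 186, and 164 CPM on day 3, and at 217, 210, and 246 CPM on day 7. Every culture library lay below every library of day 0, with changes of −0.70 ± 0.20 on day 1 and −0.75 ± 0.20 on day 7 (log2, SE, adjusted p = 0.00617 and 0.00313 by edgeR). Without isolation 2 the call on day 1 was lost (adjusted p = 0.170). Per kilobase of exon, the ratio of Pdlim7 to Pdlim1 was 0.0235, 0.0122, and 0.00875 on day 0 and 2.3, 2.53, and 1.45 on day 7. Reads of Pdlim1 may be shared with a pseudogene that matches it at 97.0% of bases.

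**Figure D3:**
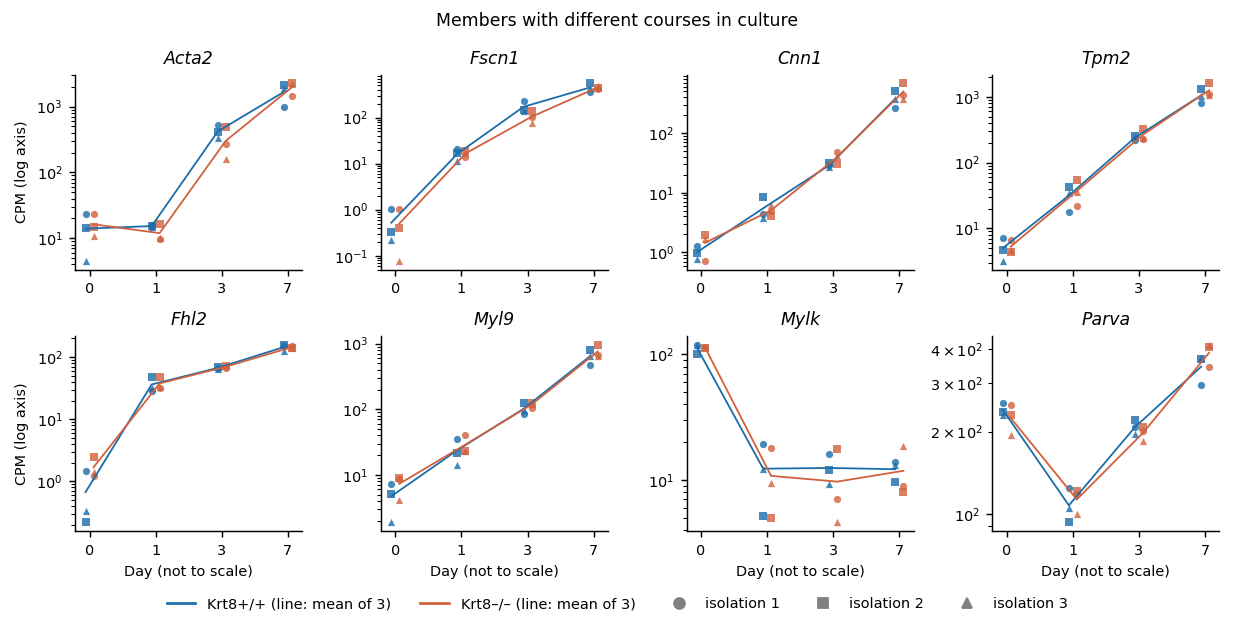
Each panel shows 1 member, with CPM on a log axis against the day of culture (days evenly spaced, not to scale), points for the 3 isolations of each genotype, and lines through the means of 3. Acta2 stays near its level of day 0 on day 1 and then climbs, Fscn1, Cnn1, Tpm2, Fhl2, and Myl9 climb from day 1 on, Mylk drops on day 1 and stays low, and Parva drops on day 1 and recovers.

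At focal adhesions, the vinculin gene Vcl and the ILK gene led. Vcl, whose product strengthens the bond between talin and actin, was at 177, 125, and 119 CPM on day 0, at 336, 267, and 332 CPM on day 1, at 466, 622, and 508 CPM on day 3, and at 529, 830, and 842 CPM on day 7. Its change on day 7 was 2.39 ± 0.21 (log2, SE, adjusted p = 7.41e-09 by edgeR), and only days 3 and 7 overlapped. Ilk, the scaffold that joins parvin to integrins, was at 133, 146, and 121 CPM on day 0, at 180, 246, and 198 CPM on day 1, at 371, 382, and 368 CPM on day 3, and at 607, 750, and 579 CPM on day 7. Its days did not overlap, and its change was 2.28 ± 0.17 (adjusted p = 6.17e-10). Vcl shares bases with the overlapping gene Ap3m1 and Ilk with Taf10, so their reads could be split by the counting.

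Other core genes dipped first. Parva, the gene of α-parvin, was at 255, 236, and 230 CPM on day 0, at 124, 92.9, and 105 CPM on day 1, at 207, 220, and 196 CPM on day 3, and at 295, 369, and 373 CPM on day 7. All 4 days lay apart. It fell by 1.16 on day 1, then rose by 0.95 and 0.74 in the next steps, each past the threshold, and its level of day 7 was 0.53 above that of day 0. The last call was lost without isolation 3 (adjusted p = 0.0505). Pxn, the gene of the adhesion scaffold paxillin, fell by 0.58 on day 1 and rose by 0.61 on day 3, and on day 7 it differed from day 0 by 0.06 ± 0.15 (adjusted p = 0.751). Its fall on day 1 was lost without isolation 2 (adjusted p = 0.0849).

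Tln1, the gene of the talin that activates integrins, was not past the threshold on day 1 (−0.41) and changed by 1.43 on day 7. Per kilobase of exon, Tln2 was at 0.038, 0.0607, and 0.0344 of Tln1 on day 0 and at 0.0238, 0.0279, and 0.0204 of it on day 7. Tln2 changed by 0.58 on day 7, a call that was lost without isolation 2 (adjusted p = 0.0637) and without isolation 3 (0.168). Among the LIM genes, Lima1, whose product EPLIN stabilises filaments at cell junctions, had a course like that of Pxn. It fell by 0.89 on day 1, rose by 0.99 on day 3, and differed from day 0 by 0.28 ± 0.16 on day 7 (adjusted p = 0.152).

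Both genes of actin turnover rose. Cfl1, whose product cofilin severs old filaments, was at 382, 435, and 433 CPM on day 0, at 980, 1300, and 1160 CPM on day 1, at 1490, 1550, and 1440 CPM on day 3, and at 2110, 2080, and 1980 CPM on day 7. Pfn1, whose product profilin feeds monomers to growing ends, was at 402, 515, and 474 CPM on day 0, at 808, 1170, and 830 CPM on day 1, at 1200, 1200, and 1060 CPM on day 3, and at 1680, 1590, and 1430 CPM on day 7. No days overlapped for Cfl1, and days 1 and 3 overlapped for Pfn1. On day 7 Cfl1 changed by 2.3 ± 0.13 and Pfn1 by 1.76 ± 0.16 (log2, SE, adjusted p = 2.09e-11 and 1.07e-08 by edgeR).

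Srf changed less than most of the other members and did so at once. It was counted at 34.7, 37.5, and 37.1 CPM on day 0, at 50.5, 46.1, and 64.3 CPM on day 1, at 60.5, 60.6, and 54.1 CPM on day 3, and at 60, 57.6, and 64.6 CPM on day 7. Every culture library lay above day 0, and the culture days overlapped. The change was 0.56 ± 0.12 on day 1 and 0.74 ± 0.12 on day 7 (log2, SE, adjusted p = 0.000456 and 1.74e-05 by edgeR). The coactivator genes Mrtfa and Mrtfb, which are not members, changed by 1.70 and 0.64 on day 7, and Mrtfa was at 17.1, 15.4, and 16.4 CPM on day 0 and at 43.8, 49.6, and 66 CPM on day 7. Of the 9 members whose sequence held a CArG box, 8 rose by day 7 with a median log2 change of 1.45. Of the 32 other members with a promoter, 30 rose with a median of 2.90, where 28.6% of all genes rose. Those 32, Acta2 and Cnn1 among them, lacked a strict match in that window, and a looser or more distant box would not be seen. The split is a description and was not tested.

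The members thus did not share 1 course. Of the 30 that rose on day 1, 25 rose again on day 3, and 14 of these 25 rose a further time on day 7. Of the 10 that did not pass the test on day 1, 9 rose on day 3, namely Acta2, Actg1, Myh10, Tagln2, Fhl1, Lpp, Csrp1, Tln1, and Tln2. Of the 6 that fell on day 1, Cnn2, Lima1, Pxn, and Parva rose on day 3, and Mylk and Pdlim1 did not pass the test. In the 42 members that were higher on day 7, the change on day 1 was in the median 34.8% of the log2 change on day 7, with 1.45% for Acta2, 73.4% for Fhl2, and 75.7% for Srf. It was below 0 for Parva, Cnn2, Tln1, Tagln2, Tln2, Fhl1, and Csrp1. The mean level was highest on day 7 for 42 members in each genotype, and the share over all genes was not counted. It was highest on day 0 for Mylk and Pdlim1 in both genotypes. On day 3 it was highest for Myh9 and Tln2 in Krt8+/+ and for Pxn and Tln2 in Krt8–/– AECs.

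Around the members, 3 further lists of the same machinery were counted in Krt8+/+ AECs against day 0, where 26.2% of all genes rose and 28.5% fell on day 1, and 28.6% rose and 30.2% fell on day 7. Of 24 other genes of the adhesion plaque, 11 rose and 6 fell on day 1, and 16 rose and 3 fell on day 7. Parvb, the paralog of Parva, went from 3 counts on day 0 to 265 on day 7, a ratio of 71.8 with an exact 95% interval of 24.3 to 350. Tns4, which encodes a tensin that lacks the actin-binding part, went from 2 to 174 counts, a ratio of 70.7 with an interval of 19.3 to 588, and was higher on day 3 with 300 counts. The kindlin gene Fermt1 was at 3.43, 2.38, and 0.554 CPM on day 0 and at 108, 81.7, and 25.3 CPM on day 7. Tns2 fell by 2.65, Sorbs3 by 1.48, and Arhgef7 by 0.69. Within the tensin family, the members named here thus moved in opposite directions.

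Of 31 genes of filament assembly, 15 rose and 4 fell on day 1, and 21 rose and 5 fell on day 7. The thymosin gene Tmsb10 changed by 3.50, the WAVE gene Wasf1 by 2.98, and the moesin gene Msn by 2.64. Ezrin, the relative of moesin that holds up the microvilli of epithelial cells, went the other way, with Ezr at 915, 835, and 775 CPM on day 0 and 491, 517, and 360 CPM on day 7 (−0.88), while Msn was at 408, 353, and 377 CPM and then at 2050, 2360, and 2680 CPM. The groups of either gene did not overlap between these days. The ARP2/3 subunit gene Arpc1a fell by 0.87 and Twf2 by 0.69.

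Of 18 tested genes among 20 other contractile and LIM isoforms, 3 rose and 7 fell on day 1, and 8 rose and 5 fell on day 7, when the share that fell was near the 30.2% of all genes. The actin-binding gene Nexn changed by 4.99. Actn3 had 0 counts on day 0 and 42 on day 7 over the 3 libraries, at least 11.4-fold higher when day 0 is set to the floor of 3 counts for the group. The cardiac actin gene Actc1 had 89 counts on day 0 and 0 on day 7, at least 36.5-fold lower by the same floor. Limch1 fell by 1.71 and Myl6b by 1.70.

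Several members are also genes of smooth muscle, fibroblasts, and pericytes, and markers of these cells were present and moved in the same libraries. The 8 genes of the smooth muscle and pericyte list summed to 31.2, 15.9, and 7.64 CPM on day 0 in Krt8+/+ libraries, 31.7, 15, and 14.1 CPM on day 1, 159, 110, and 103 CPM on day 3, and 200, 258, and 374 CPM on day 7. Of the 7 tested, 6 rose by day 7, where 28.6% of all genes rose. Myh11, the defining smooth muscle myosin gene, was at 11.6, 3.57, and 1.33 CPM on day 0 and at 33.5, 88.7, and 60.8 CPM on day 7. Over the same days Acta2, Tagln, Cnn1, and Myl9 together went from 42, 24.6, and 10.6 CPM to 2680, 4930, and 4360 CPM. On day 7 in Krt8+/+ libraries isolation 1 was the lowest in Myh11 and in the 4 members. In Krt8–/– libraries Myh11 was at 82.6, 143, and 73.1 CPM and the 4 members at 3880, 5740, and 4650 CPM. Myh11 was picked after its values were seen. In Krt8+/+ libraries of day 7, Cspg4, Pdgfrb, and Lmod1 were also lowest in isolation 1. Des (79.4, 26, and 70.5 CPM) and Actg2 (27.7, 20.1, and 50.8 CPM) were lowest in isolation 2, and Notch3 and Rgs5 in isolation 3. In Krt8–/– libraries Lmod1 was highest in isolation 2 as Myh11 was, and Des, Cspg4, Pdgfrb, and Actg2 in isolation 3.

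The 6 genes of the fibroblast list summed in Krt8+/+ libraries to 979, 500, and 293 CPM on day 0, 249, 156, and 135 CPM on day 1, 1730, 1280, and 961 CPM on day 3, and 870, 951, and 1800 CPM on day 7, with 902, 797, and 2980 CPM on day 7 in Krt8–/– libraries. Of them, Col1a1 and Col1a2 rose by day 7, and Col3a1, Dcn, and Lum fell. The 4 mesothelial genes summed in Krt8+/+ libraries to 205, 114, and 66.3 CPM on day 0 and to 1550, 1870, and 988 CPM on day 7, and Msln carried that rise, while Wt1, Upk3b, and Lrrn4 fell. Of the 6 endothelial genes, 3 were tested and 2 of these fell by day 7, where 30.2% of all genes fell. The 6 summed on day 7 to at most 3.12 CPM in Krt8+/+ and 4.72 CPM in Krt8–/– libraries. The 6 macrophage genes summed to 133, 39.8, and 9.21 CPM on day 7 in Krt8+/+ libraries, and 0 of them passed by edgeR, with 1 below an unadjusted 0.05. Among the 3 epithelial genes Epcam and Nkx2-1 fell by edgeR in Krt8+/+ libraries. In isolation 1, however, Epcam was at 295 CPM on day 0 and 299 CPM on day 7. Cdh1 did not pass but was lower in each isolation, from 1190, 1070, and 1020 CPM to 802, 890, and 607 CPM. Among the 5 AEC1 genes Hopx, Pdpn, and Rtkn2 rose and Aqp5 fell. Ager, the most abundant of them, did not pass but was lower in each isolation, from 1640, 2030, and 2050 CPM to 741, 861, and 1350 CPM. The sum of the 5 went from 2260, 2780, and 2950 CPM on day 0 to 1090, 1230, and 1950 CPM on day 7. The part of other cell types in the members' rise was not tested.

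**Figure D4:**
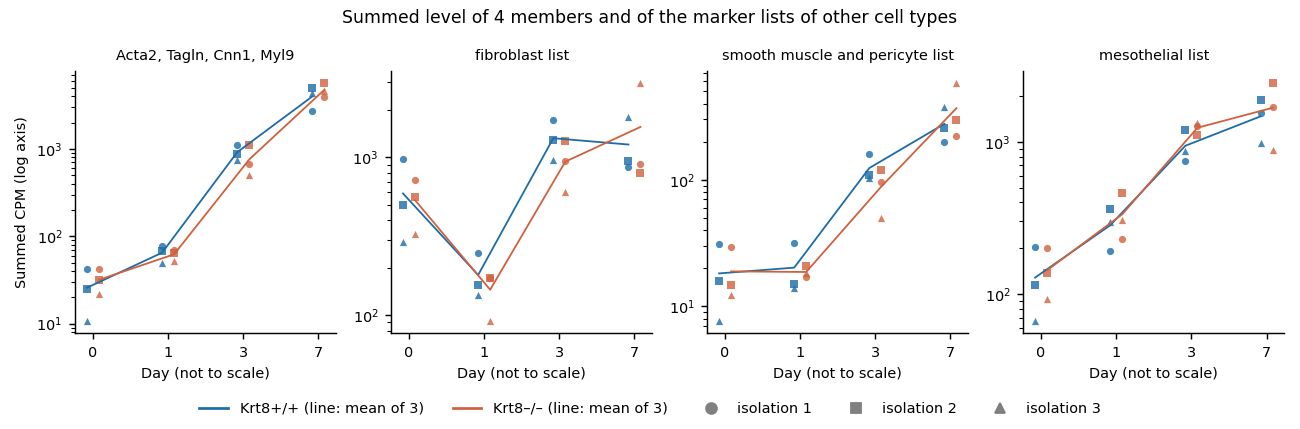
The panels show the summed CPM on a log axis of Acta2, Tagln, Cnn1, and Myl9 and of the fibroblast, smooth muscle and pericyte, and mesothelial lists by day (not to scale), with points for the 3 isolations of each genotype and lines through the means of 3. The 4 members rise between day 0 and day 7 from 42, 24.6, and 10.6 CPM to 2680, 4930, and 4360 CPM in Krt8+/+ libraries, and the smooth muscle and pericyte list rises from 31.2, 15.9, and 7.64 CPM to 200, 258, and 374 CPM.

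In Krt8–/– AECs, too, most members were higher in culture. On day 1 against day 0, 30 members rose and 4 fell, where 23.7% of all genes rose and 26.9% fell, and the median log2 change was 0.95. On day 7 against day 0, 41 rose and 2 fell, where 28.6% of all genes rose and 29.9% fell, and the median was 2.47. The call of day 7 was the same in both genotypes for 45 of the 46 members, and the exception was Tln2, with changes of 0.58 in Krt8+/+ and 0.25 in Krt8–/– AECs. The same count was not made over all genes tested, of which 0.0166% differed between genotypes on day 7. The falls on day 7 were again those of Mylk (−3.27) and Pdlim1 (−0.80), and without isolation 2 the latter was lost (adjusted p = 0.0584).

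Between genotypes, no member passed the test on any day. The comparison asks whether loss of keratin 8, a subunit of the intermediate filaments of simple epithelia, changed the RNA of this machinery. On days 0, 1, 3, and 7, the count of members past the adjusted threshold was 0 of 46 on each day by edgeR, where 0.0277%, 0.0166%, 0.0166%, and 0.0166% of all genes passed, and 0 by DESeq2. At an unadjusted threshold of 0.05, edgeR took 2, 2, 1, and 0 members in turn and DESeq2 took 2, 2, 2, and 0. The test of the genotype difference by day took 0 members, also at the unadjusted threshold by either tool, where 0.00554% of all genes passed. Without isolation 1, in which the genotypes also differed in Y-linked RNA, the count was 0 on each day as well, and 1, 2, 0, and 0 members were below an unadjusted 0.05 by edgeR. The adjusted count was also 0 on each day without isolation 2 or isolation 3, with 1, 1, 6, and 0 members below an unadjusted 0.05 without isolation 2 and 0, 1, 2, and 0 without isolation 3. When only the libraries compared were fitted, 0, 0, 3, and 1 were below it, and 0 passed the adjustment.

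The differences themselves were small against their errors for most members. The median log2 difference of Krt8–/– minus Krt8+/+ AECs was 0.05, 0.06, 0.02, and 0.08 on days 0, 1, 3, and 7. On day 7 the differences ran from −0.21 for Lima1 to 0.39 for Cnn1, and for 41 members the 95% interval lay within 1 log2 unit on both sides of 0. On day 0 this held for 38 members, and on days 1 and 3 for 36. The widest intervals belonged to Fhl3, whose counts differed most between isolations. For the remaining members the interval reached beyond that range.

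On day 0, the members with the smallest p were Fhl2, Tln2, and Myl9. Fhl2 was at 1.46, 0.217, and 0.332 CPM in Krt8+/+ and at 1.22, 2.43, and 1.39 CPM in Krt8–/– AEC2s, a difference of 1.06 ± 0.44 (log2, SE, adjusted p = 1.00 by edgeR) that was seen in 2 of 3 isolations. Tln2 was at 15.2, 16, and 9.85 CPM and at 18.9, 23.8, and 14.2 CPM, a difference of 0.46 ± 0.20 in 3 of 3 isolations (adjusted p = 1.00). Both pairs of groups overlapped, and Myl9 differed by 0.57 ± 0.41.

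On day 1 they were Actn1, Pxn, and Lima1. Actn1 was at 154, 225, and 153 CPM in Krt8+/+ and at 177, 254, and 326 CPM in Krt8–/– AECs, a difference of 0.51 ± 0.19 (log2, SE, adjusted p = 1.00 by edgeR). Pxn was at 114, 87.5, and 84 CPM and at 129, 118, and 118 CPM, with no overlap and a difference of 0.35 ± 0.15 (adjusted p = 1.00). Lima1 differed by −0.31 ± 0.17.

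On day 3 they were Fscn1, Lima1, and Cnn1, with differences of −0.72 ± 0.30, −0.32 ± 0.16, and 0.45 ± 0.29 (log2, SE). Fscn1 was at 225, 148, and 141 CPM in Krt8+/+ and at 101, 136, and 74.6 CPM in Krt8–/– AECs, and the groups did not overlap (adjusted p = 1.00 by edgeR). On day 7 they were Myh9, Vcl, and Tln1, with differences of 0.32 ± 0.19, 0.33 ± 0.20, and 0.38 ± 0.24, each in 3 of 3 isolations. Myh9 was at 590, 694, and 650 CPM in Krt8+/+ and at 810, 868, and 736 CPM in Krt8–/– AECs, with no overlap. None of these 12 differences passed the adjustment over all genes tested.

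**Figure D5:**
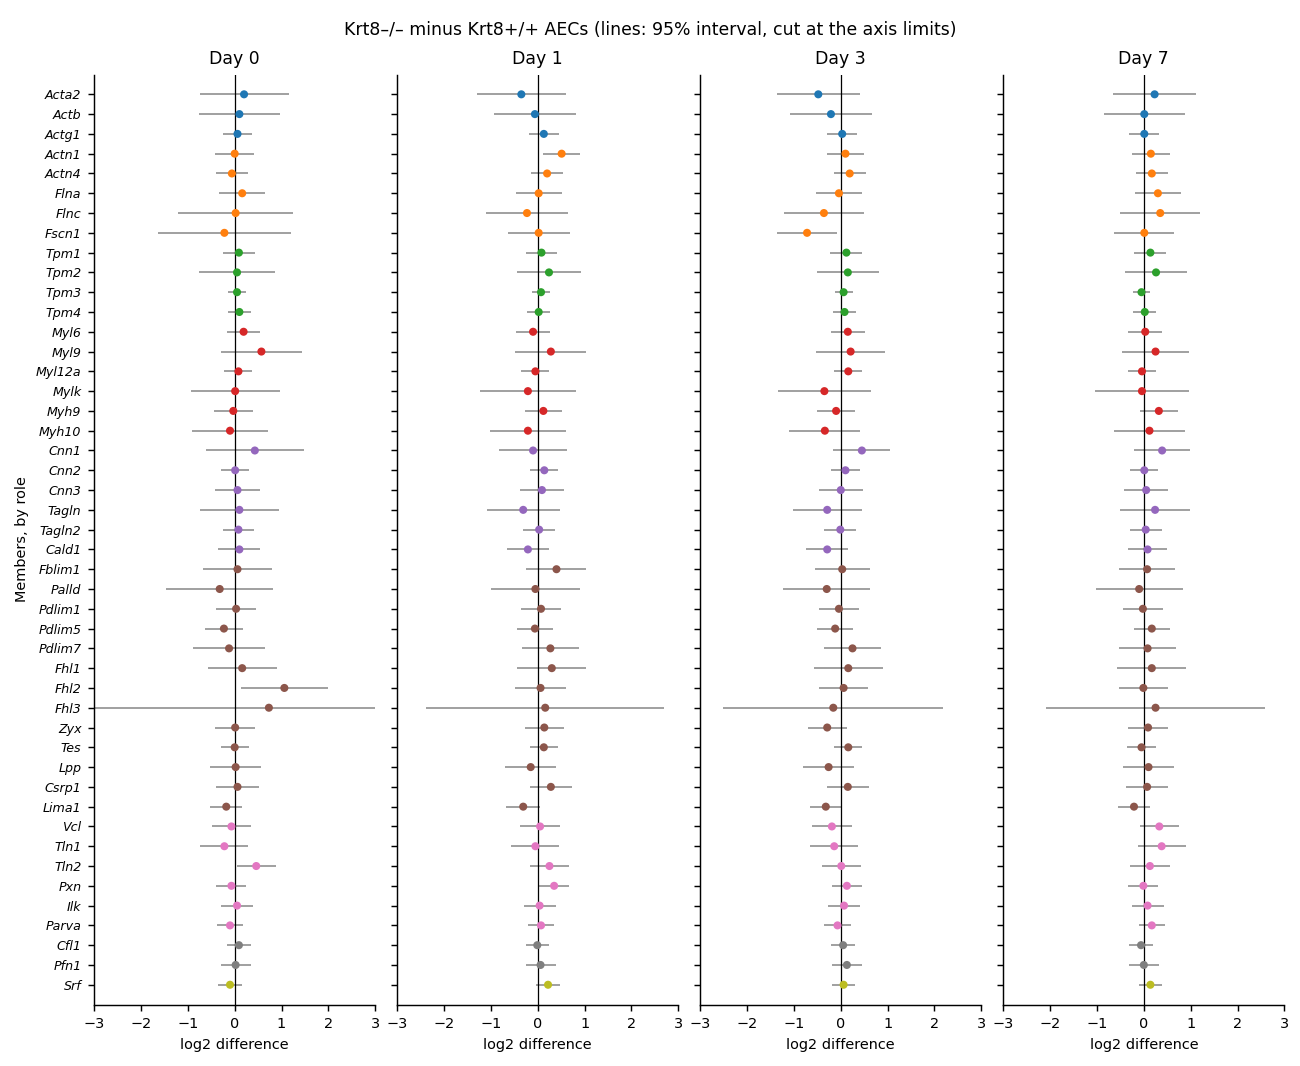
Each panel is a day, each line a member in order of role, and each point the log2 difference of Krt8–/– minus Krt8+/+ AECs with its 95% interval, cut at the axis limits for Fhl3. The points lie near 0, from −0.21 to 0.39 on day 7, and no member passed the adjusted threshold on any day.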

How the data were processed

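The 24 libraries hold RNA of AEC2s of 2 genotypes and 4 times, from 3 isolations each. The authors deposited 1 table of read counts per gene, not normalized; per the labels (the submitters' processing notes), cutadapt 2.3, STAR 2.7.8a, and RSEM 1.3.3 were used on GRCm38. RSEM gives estimated counts, and no source used here says whether these were rounded before deposit. GENCODE M21 gave symbols for 55240 of 55421 identifiers. Single-cell and tissue data of the paper were not analysed here.

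Counts were filtered with edgeR's filterByExpr (min.count 10, min.total.count 15), scaled with TMM, and fitted in 1 quasi-likelihood model of 8 groups (16 residual degrees of freedom) with Benjamini-Hochberg adjustment over 18046 genes and a threshold of 0.05 (R 4.3.3, edgeR 4.0.16, limma 3.58.1, DESeq2 1.42.0). Steps were tested on simulated data in which a small set of genes changed, in the Krt8+/+ day 7 libraries only. The simulation did not cover changes as wide as those seen in culture. P values measure the spread between isolations, and exact intervals and floors (3 counts) cover counting error only. Total counts per library were 10184439 to 19483386. Levels between genes were compared per kilobase of the union of exons.

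The members, the lists, and the comparisons were chosen with earlier results of these data known. Values in every library are given, in each role group, for the 2 members past the threshold with the largest change of Krt8+/+ day 7 against day 0, at least 1 CPM in a group mean, and the same direction in each isolation. Of each further list the 3 highest and 3 lowest by the same rule are named (1 list and 1 gene of another list are not reported here), and between genotypes the 3 members with the smallest p on each day. Parva, Pdlim1, Pxn, Lima1, Mrtfa, Mrtfb, Actn1, and Myh11 and the paralog ratios were given in addition after their values were seen.

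Libraries of a number share a date in their titles, read here as the date of isolation, which pairs them. Paired libraries' deviations from the mean of their group correlated across genes at −0.0345 (day 3 against day 1, Krt8+/+ AECs) to 0.548 (between genotypes on day 7) over the 10 comparisons. Counts in the text are from the fit without the block. Alternatives were DESeq2's size factors, total count scaling, the DESeq2 test, no filter, a replicate block by isolation, leaving out isolations 1, 2, or 3, fitting the compared libraries alone, and the longest transcript as the length.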

Additional observations from a re-analysis of the deposited data

How the results depend on the processing

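Of 123 results of single members that were re-examined, all 123 kept their direction and side of the threshold with isolation as a replicate block, with DESeq2's size factors, and with the DESeq2 test. Without the filter on low counts 122 did so, with total count scaling 118, without isolation 1, 2, or 3 it was 120, 115, and 117, and with only the compared libraries 118 of the 122 that this fit gave; of the others, 1 turned its direction and the rest no longer passed. Over all 46 members, the replicate block raised the number past the threshold from 36 to 38 on day 1, from 38 to 42 on day 3 against day 1, and from 19 to 23 on day 7 against day 3 in Krt8+/+ AECs, and from 34 to 36 on day 1 in Krt8–/– AECs. In the other comparisons it left the number as it was. Total count scaling lowered the number of members that fell on day 1 in Krt8+/+ AECs from 6 to 3, of those that rose from day 3 to day 7 from 19 to 11, and of those that fell by day 7 from 2 to 1 in either genotype, and it reversed Cnn2 on day 1 from −0.41 to 0.07. This scaling moved the median of all genes by 0.46 on day 1. Leaving out 1 isolation gave 3 to 5 falls on day 1, 7 to 11 rises from day 3 to day 7, and 1 to 2 falls by day 7 in Krt8–/– AECs, and the cause was not tested. The order per kilobase of Tpm1 and Tpm4 on days 0, 3, and 7, and on day 3 those of Actb and Actg1 and of Pdlim1 and Pdlim7 in Krt8+/+ AECs, turned when the longest transcript was used as the length. With 3 isolations a group, changes of Fhl3 and of genes near 0 on day 0 had wide errors.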
